A study of Saccharomyces cerevisiae with 14 samples.

Results

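The 10 genes described here are CDC5, CDC20, SWI5, ALK1, BUD3, BUD4, MYO1, IQG1, HOF1 and CHS2, taken by name from the CLB2 cluster of budding yeast (Saccharomyces cerevisiae) out of the 6670 identifiers in the count table. The rule names them and uses no measured value, although the set was chosen with earlier results of these data known. Polyadenylated RNA was sequenced from cells of the genotype Z3EVpr-SWI4, in which an estradiol-activated synthetic transcription factor drives SWI4, the DNA-binding subunit of the late G1 transcription factor SBF. All 7 groups carry this construct, were grown in SC medium containing glucose at 2% and have 2 libraries each. The groups are induction with 5 nM beta-estradiol, dissolved in ethanol, over 1, 2 or 4 h, mock induction with ethanol over the same times, and untreated cells at 0 h. No group lacks the construct, so effects of SWI4 and other effects of estradiol cannot be told apart. Nothing in the labels ties a replicate to its own culture, so p-values measure the spread between these libraries, which may be technical.

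The CLB2 cluster is a set of genes transcribed together from G2 into mitosis. Their promoters are bound by the MADS-box protein Mcm1 beside the forkhead protein Fkh2, which recruits the coactivator Ndd1 once mitotic cyclin-dependent kinase is active. The products act late in the cycle: Cdc5 and Cdc20 drive anaphase and mitotic exit, Swi5 turns on early G1 genes after mitosis, and the bud neck proteins build the contractile ring and septum that separate mother from daughter. SBF acts at the other end of the cycle, on G1 cyclin genes. Because the RNA came from whole cultures, a larger share of cells in G2 and M and more of a transcript per cell cannot be told apart.

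The promoters of 6 of the 10 genes held an Mcm1 word and a forkhead word side by side, and those stretches are shown because they are the arrangement that the CLB2 cluster is known for. They were read from the R64 assembly by its own annotation, on the strand of the gene and 5′ to 3′. Capitals mark the Mcm1 word and then the forkhead word.
CDC20, chrVII:289470-289542, plus strand: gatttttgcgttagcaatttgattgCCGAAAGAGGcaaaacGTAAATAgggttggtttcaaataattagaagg
SWI5, chrIV:751012-751084, minus strand: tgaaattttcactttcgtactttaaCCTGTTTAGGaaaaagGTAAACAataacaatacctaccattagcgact
BUD4, chrX:598513-598585, plus strand: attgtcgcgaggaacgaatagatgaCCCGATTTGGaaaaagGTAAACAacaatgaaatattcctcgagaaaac
MYO1, chrVIII:151453-151526, plus strand: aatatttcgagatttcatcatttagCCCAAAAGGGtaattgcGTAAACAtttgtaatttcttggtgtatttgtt
HOF1, chrXIII:335057-335129, plus strand: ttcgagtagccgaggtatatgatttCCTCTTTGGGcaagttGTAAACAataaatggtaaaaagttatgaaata
ALK1, chrVII:454657-454729, plus strand: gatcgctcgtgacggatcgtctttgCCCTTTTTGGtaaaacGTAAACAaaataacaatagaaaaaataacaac
In all 6 the forkhead word lay on the gene's own strand, on the gene side of the Mcm1 word. The gap between the words was 6 bases in every stretch except that of MYO1, where it was 7. GTAAACA is the forkhead word in all of them but CDC20, which has GTAAATA.

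The search covered the 500 bases before each start codon, on both strands. The Mcm1 word was a pair of C, any 6 bases and a pair of G, which reads the same on both strands, and the forkhead word was GTAAACA, its variant ATAAACA, the word GTAAATA or its variant ATAAATA. A side by side pair was an Mcm1 word and a forkhead word that did not overlap and lay within 20 bases of each other. Such a pair stood before 6 of the 10 genes, against 211 of all 5977 promoters (3.53%), and before 4 of 14 other CLB2 cluster genes (28.6%). A forkhead word alone was before 10 of 10 genes and in 56.2% of all promoters, and an Mcm1 word was before 6 of 10 and in 49.2%. The SBF word CACGAAA was before CHS2 only, 68 to 74 bases upstream and on the other strand, and it was in 7.14% of all promoters. The MBF word ACGCGT was before 0 of 10 and in 5.44%. In the last 150 bases the pair was found before 1 of 10 genes (ALK1), against 0.686% of all promoters. A match is a description of letters and does not show that a factor binds.

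**Figure D1:**
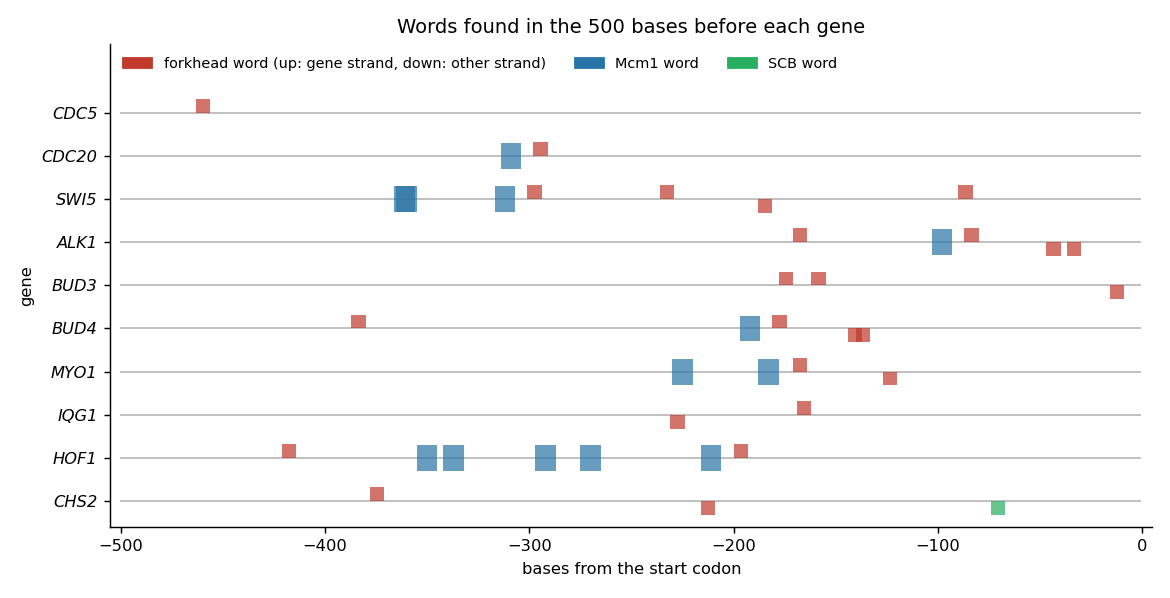
Positions of the searched words in the 500 bases before each of the 10 genes, with distance from the start codon in bases on the horizontal axis and genes on the vertical axis. Forkhead words (up for the gene's strand, down for the other) stand before all 10 genes, and 6 of them have an Mcm1 word beside a forkhead word.

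Libraries held 3469868 to 17314913 counts, with the fewest in the ethanol libraries of 1 and 2 h (3469868 to 5698712). SWI4 had 668 to 1731 CPM (read counts scaled to a common library size with TMM factors) in the 6 estradiol libraries, 12.1 to 23.0 CPM in the 6 ethanol libraries and 17.9 to 20.7 CPM in the untreated ones. As markers of cycle phase, the summed CPM of the G1/S genes CLN1, CLN2 and PCL1 was 423 to 555 with estradiol, 97.9 to 171 with ethanol and 136 to 150.5 untreated. These genes are also SBF targets, so induced SWI4 and a change of phase cannot be told apart in their sum. The 8 core histone genes summed to 3036 to 3837 CPM at 1 h, 4726 to 6113 at 2 h and 4317 to 5463 at 4 h of estradiol, to 3068 to 3808 with ethanol and to 3095 to 3148 untreated. Of the markers, 0 were at 0 in every library. Mating genes specific to a cells summed to 365 to 547 CPM with estradiol and 888 to 1132 CPM in the other libraries, and those specific to alpha cells to 4.13 to 7.41 CPM over all 14. The part of these marker differences in the results on the 10 genes was not tested.

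The comparison of estradiol with ethanol asks how transcripts respond when SWI4 is induced. Averaged over the 3 times, SWI5, BUD4 and ALK1 rose with estradiol, and 0 of the 10 genes fell. Their log2 fold changes were 0.93 for SWI5 (SE 0.21, adjusted p = 0.0233), 0.97 for BUD4 (SE 0.26, adjusted p = 0.0474) and 0.78 for ALK1 (SE 0.18, adjusted p = 0.0215), by edgeR's quasi-likelihood test with Benjamini-Hochberg adjustment over 6320 genes and 6 libraries on each side. Of all genes tested, 3.29% were called higher and 2.93% lower in this comparison. All 10 genes had a positive average value, as did 53.3% of all genes, and their median was 0.52 against 0.018 for all genes. At an unadjusted p under 0.05, 6 of the 10 were higher (these 3 with CDC5, BUD3 and HOF1), against 8.05% of all genes.

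The 3 average calls were lost without some libraries. By edgeR 0 of the 10 genes were called without replicate 1 of 2 h or of 4 h estradiol, or without replicate 2 of 2 h or of 4 h ethanol. Without each of these 4 libraries in turn the adjusted p of SWI5 was 0.0587 to 0.0758, that of ALK1 0.0582 to 0.0675 and that of BUD4 0.114 to 0.127. BUD4 lost its call without 10 of the 12 treated libraries, with an adjusted p of 0.0530 to 0.127. With library totals in place of TMM factors, 0 were called, at adjusted p-values of 0.225 (SWI5), 0.262 (BUD4) and 0.261 (ALK1), and DESeq2 called the same 3.

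At each time taken alone, 0 of the 10 genes were called by edgeR or by DESeq2. The shares of all genes called higher were 0.473% at 1 h, 0.899% at 2 h and 1.18% at 4 h. The smallest adjusted p among the 10 was 0.245 at 1 h (ALK1), 0.631 at 2 h (SWI5) and 0.669 at 4 h (ALK1). At an unadjusted p under 0.05, 6 genes were higher at 1 h (CDC5, SWI5, BUD4, BUD3, HOF1 and ALK1), 1 at 2 h (SWI5) and 0 at 4 h, against 3.46%, 3.49% and 4.62% of all genes. Positive values were found for 10, 9 and 8 of the 10, against 50.4%, 54.2% and 48.4% of all genes. The medians of the 10 were 0.82, 0.44 and 0.43 at 1, 2 and 4 h, and those of all genes lay between -0.0081 and 0.024. Single libraries moved these medians: 1 h gave 0.48 without replicate 1 of estradiol and 1.30 without replicate 2 of ethanol, 2 h gave 0.038 without replicate 1 and 0.73 without replicate 2 of estradiol, and 4 h gave 0.17 without replicate 1 of estradiol, 0.71 without replicate 2 of estradiol and 0.28 without replicate 2 of ethanol.

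**Figure D2:**
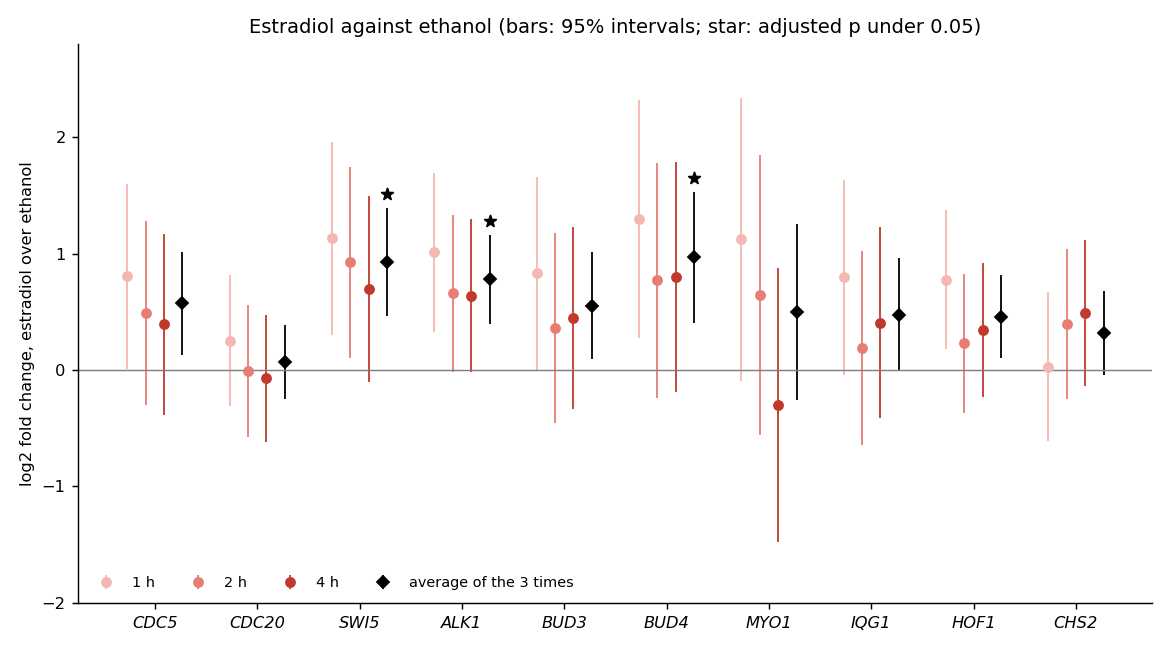
Log2 fold change of estradiol over ethanol (vertical axis) for each of the 10 genes at 1, 2 and 4 h and averaged over the times, with 95% intervals as bars and stars at an adjusted p under 0.05. SWI5, BUD4 and ALK1 carry stars in the average at 0.93, 0.97 and 0.78, and CDC20 has the smallest average at 0.07.

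Both estradiol libraries lay above both ethanol libraries for 6 genes at 1 h (CDC5, SWI5, BUD4, IQG1, HOF1 and ALK1), 1 at 2 h (SWI5) and 6 at 4 h (SWI5, BUD4, BUD3, CHS2, HOF1 and ALK1). The shares of all genes that did so were 14.3%, 11% and 19.3%. For 0 of the 10 did both lie below at any time, against 16.7%, 12.9% and 17.7% of all genes. SWI5 was separate at all 3 times, as were 220 of the 6337 genes tested (3.47%). All 10 genes passed the filter on low counts, with 40 to 1891 counts per library.

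Among the mitotic regulators, SWI5 (YDR146C) encodes the zinc finger factor that enters the nucleus at mitotic exit and activates genes of early G1. SWI5 had 96.1 and 54.9 CPM at 1 h of estradiol, 84.2 and 46.9 at 2 h and 62.1 and 45.9 at 4 h. In ethanol it had 24.6 and 43.3 CPM at 1 h, 40.4 and 29.1 at 2 h and 38.5 and 28.1 at 4 h, and in untreated cells 39.2 and 48.3 CPM. All 6 estradiol libraries were above the highest ethanol library. Every gene like this is among the 220 of 6337 (3.47%) separate at all 3 times, and their exact share was not computed. The log2 fold changes were 1.13 (SE 0.38), 0.92 (SE 0.38) and 0.70 (SE 0.36) at 1, 2 and 4 h, and the average had a 95% interval of 0.46 to 1.39.

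ALK1 (YGL021W) encodes a haspin-like kinase, of a family known for phosphorylating histone H3 in mitosis. Its libraries had 95.4 and 71.1 CPM at 1 h, 90.4 and 52.4 at 2 h and 82.3 and 58.8 at 4 h of estradiol. With ethanol they had 35.5 and 46.6, 54.3 and 36.7, and 50.9 and 39.7 CPM at the same times, and untreated cells had 52.9 and 64.2 CPM. Of the 6 estradiol libraries 5 exceeded every ethanol library, the exception being replicate 2 at 2 h. The share of all genes with such a count was not computed, here or for the other genes. The log2 fold change was 1.01 (SE 0.31) at 1 h, 0.66 (SE 0.31) at 2 h and 0.64 (SE 0.30) at 4 h, with an interval of 0.40 to 1.16 for the average.

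CDC5 (YMR001C), the Polo kinase, showed 122 and 84.2 CPM at 1 h, 108 and 62.5 at 2 h and 91.2 and 56.0 at 4 h of estradiol. Ethanol gave 45.7 and 71.5, 65.1 and 56.6, and 69.9 and 42.1 CPM, and untreated cells 59.8 and 78.2 CPM. The groups were separate at 1 h and overlapped at 2 and 4 h, where replicate 2 of estradiol lay between the ethanol values. Its average log2 fold change was 0.57 (SE 0.20), which did not pass the test over all genes (adjusted p = 0.154).

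CDC20 (YGL116W), which activates the anaphase-promoting complex at the start of anaphase, had 56.1 and 37.7 CPM at 1 h, 40.8 and 27.2 at 2 h and 35.1 and 28.9 at 4 h of estradiol. The ethanol values were 34.8 and 43.7, 36.1 and 32.5, and 36.0 and 31.1 CPM, and the untreated ones 39.0 and 48.0 CPM. The groups overlapped at every time, and 1 estradiol library was above the highest ethanol one. The average log2 fold change was 0.07 (SE 0.15, adjusted p = 0.865), with a 95% interval of -0.25 to 0.38.

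The bud neck landmark genes BUD3 and BUD4 encode proteins that mark the site of the next axial bud beside the septin ring. BUD4 (YJR092W), an anillin-like protein, had 175 and 75.8 CPM at 1 h, 138 and 64.3 at 2 h and 112 and 74.7 at 4 h of estradiol. The ethanol libraries had 38.6 and 62.4, 73.4 and 45.7, and 59.8 and 47.5 CPM, and the untreated ones 60.4 and 90.8 CPM. The estradiol replicates of BUD4 differed by more than 2-fold at 1 and 2 h, and replicate 2 at 2 h was the only estradiol library within the ethanol range. Its log2 fold change was 1.30 (SE 0.47) at 1 h, 0.77 (SE 0.46) at 2 h and 0.80 (SE 0.45) at 4 h, with a 95% interval of 0.40 to 1.53 for the average.

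BUD3 (YCL014W) had 55.0 and 31.5 CPM at 1 h, 47.2 and 31.1 at 2 h and 46.0 and 30.1 at 4 h of estradiol. Its ethanol libraries had 15.1 and 32.2, 34.8 and 26.6, and 29.7 and 26.1 CPM, and the untreated ones 30.3 and 37.4 CPM. Replicate 1 of estradiol was above the ethanol values at every time, and replicate 2 was above them at 4 h only. The average log2 fold change of 0.55 (SE 0.21) had an adjusted p of 0.203.

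The contractile ring and septum genes had 0 calls, by edgeR in the average and at each time. MYO1 (YHR023W), the heavy chain of the type II myosin of the ring, had 140.2 and 52.0 CPM at 1 h, 117 and 40.7 at 2 h and 52.5 and 32.9 at 4 h of estradiol. With ethanol it had 32.9 and 54.4, 49.0 and 51.8, and 66.8 and 38.6 CPM, and untreated 44.3 and 73.3 CPM. At 1 and 2 h of estradiol, replicate 1 was above and replicate 2 below the highest ethanol library, the widest spread between replicates among the 10 genes. The log2 fold change was 1.12 (SE 0.56) at 1 h, 0.65 (SE 0.55) at 2 h and -0.30 (SE 0.54) at 4 h, and the average of 0.49 (SE 0.35, adjusted p = 0.546) had an interval of -0.26 to 1.25.

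IQG1 (YPL242C), the IQGAP protein that helps to assemble the actomyosin ring, had 151 and 98.1 CPM at 1 h, 123 and 61.8 at 2 h and 114 and 68.3 at 4 h of estradiol. Its ethanol values were 50.7 and 91.8, 87.1 and 75.0, and 79.2 and 58.2 CPM, and the untreated ones 87.8 and 99.3 CPM. The groups were separate at 1 h, and the average of 0.48 (SE 0.22, adjusted p = 0.334) had an interval of -0.01 to 0.96.

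HOF1 (YMR032W), an F-BAR protein that links ring and septum, had 71.7 and 48.7 CPM at 1 h, 50.5 and 32.2 at 2 h and 42.4 and 36.9 at 4 h of estradiol. In ethanol it had 28.7 and 40.9, 38.6 and 32.3, and 34.5 and 28.0 CPM, and in untreated cells 41.8 and 45.2 CPM. Estradiol and ethanol libraries were separate at 1 and 4 h. Its average log2 fold change was 0.46 (SE 0.17, adjusted p = 0.161), and it was called when replicate 2 of 2 h estradiol was left out (adjusted p = 0.0433).

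CHS2 (YBR038W), the chitin synthase of the primary septum, had 86.0 and 96.2 CPM at 1 h, 58.8 and 99.1 at 2 h and 85.1 and 92.4 at 4 h of estradiol. Ethanol libraries had 117 and 62.6, 55.0 and 64.4, and 62.1 and 64.5 CPM, and untreated ones 69.0 and 59.1 CPM. The highest CHS2 level of all was in an ethanol library, replicate 1 at 1 h, and at 4 h both estradiol libraries were above both ethanol libraries. The log2 fold change was 0.03 (SE 0.29) at 1 h, 0.40 (SE 0.29) at 2 h and 0.49 (SE 0.29) at 4 h, and the average was 0.32 (SE 0.17, adjusted p = 0.390).

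**Figure D3:**
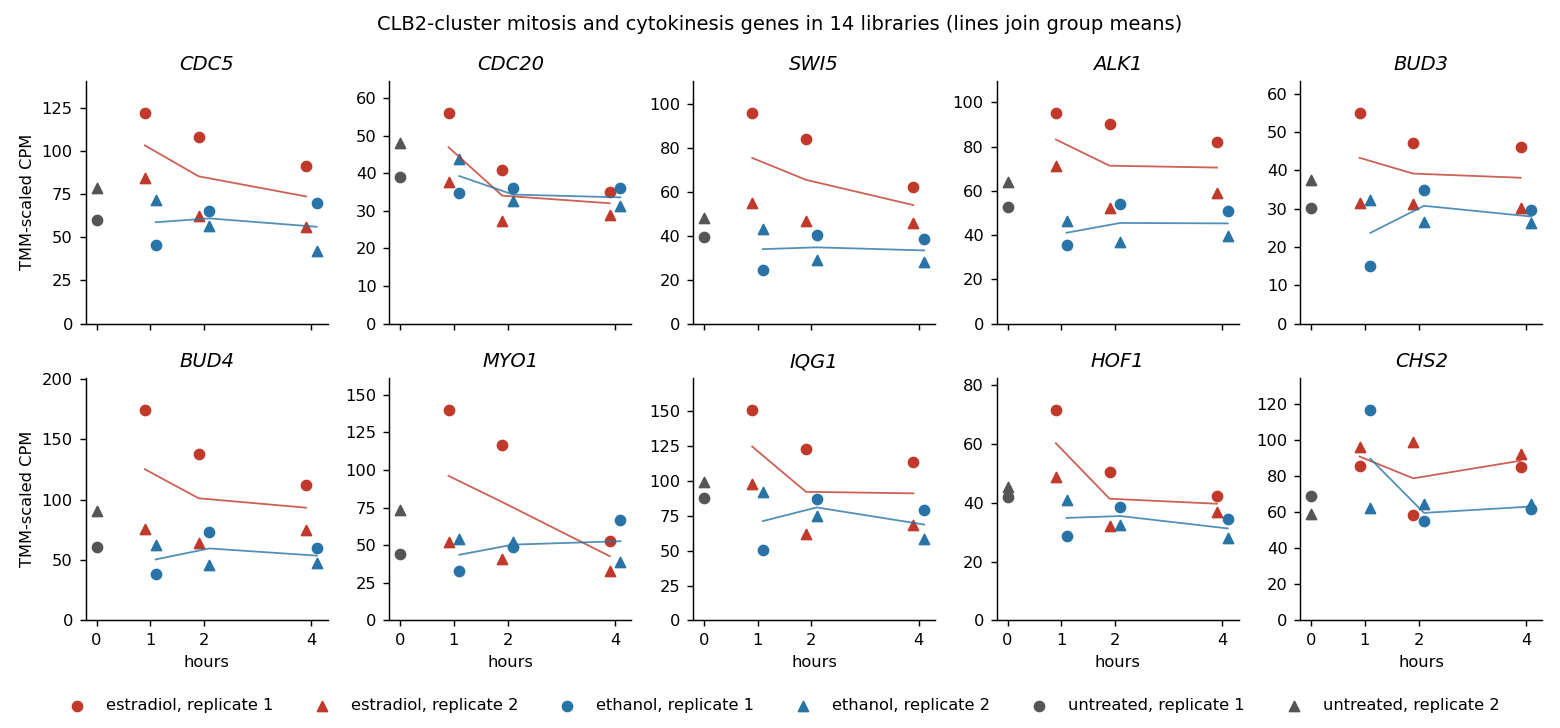
TMM-scaled CPM (vertical axis) of each of the 10 genes in all 14 libraries against hours (horizontal axis), with circles for replicate 1, triangles for replicate 2 and lines through the group means. The 6 estradiol libraries of SWI5 (45.9 to 96.1 CPM) lie above its 6 ethanol libraries (24.6 to 43.3 CPM). For every other gene the ranges over all estradiol and all ethanol libraries overlap.

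The estradiol effect was smaller at 2 h than at 1 h in 9 of the 10 genes, and smaller at 4 h than at 1 h in 9 of the 10, CHS2 being the exception both times. The median differences were -0.41 and -0.40 on the log2 scale, against 0.0070 and 0.0049 for all genes, and both use the 1 h libraries. The shares of all genes with a smaller effect were not computed. The 1 h median of the 10 was 0.82, and it was 0.55 without replicate 1 of 1 h ethanol and 1.30 without replicate 2. The joint test of a change with time called 0 of the 10 and 0% of the 6337 genes by edgeR, with an adjusted p of 0.999 for each of the 10. Of the 10, 0 had an unadjusted p under 0.05, as did 72 of all genes, and DESeq2 called 2 genes in all, 0 of them among the 10. A difference in the effect between the times was not detectable for these genes with 2 libraries a group.

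Against untreated cells 0 of the 10 genes were called in any treated group by edgeR or DESeq2. The whole table had 1.53%, 3.47% and 10.7% of genes called at 1, 2 and 4 h of estradiol and 0%, 0.0473% and 1.74% at 1, 2 and 4 h of ethanol. At an unadjusted p under 0.05 there were likewise 0 of the 10 in each, against 682, 1014 and 1764 of 6337 genes with estradiol and 397, 374 and 1097 with ethanol. All these comparisons share the untreated libraries. After 1 h of estradiol all 10 had a positive log2 fold change over untreated cells (50.6% of all genes), with a median of 0.51, and both libraries were above both untreated ones for 5 of them (21% of all genes). The medians were 0.29 at 2 h and 0.13 at 4 h of estradiol, with 7 and 6 positive values (51.6% and 48.2% of all genes). With estradiol, leaving out replicate 1 of the group gave 0.13 at 1 h, -0.19 at 2 h and -0.20 at 4 h, and leaving out replicate 2 gave 0.56 at 2 h and 0.41 at 4 h. Without untreated replicate 1 the 2 h median was 0.14 and the 4 h median -0.022, and without untreated replicate 2 the 4 h median was 0.31. The ethanol medians were -0.36, -0.26 and -0.37 at 1, 2 and 4 h, with 1, 0 and 0 positive values (50.1%, 48.6% and 47.8% of all genes). They ranged from -0.79 (without ethanol replicate 2) to -0.055 (without ethanol replicate 1) at 1 h, from -0.41 (without untreated replicate 1) to -0.11 (without ethanol replicate 2) at 2 h and from -0.61 (without ethanol replicate 1) to -0.19 (without untreated replicate 2) at 4 h. With a trend on coding length removed from each library, the medians were 0.60, 0.46 and 0.33 at 1, 2 and 4 h of estradiol and -0.18, -0.13 and -0.24 at 1, 2 and 4 h of ethanol, where 1, 3 and 2 of the 10 genes were positive. With a surrogate variable, a covariate estimated from the counts themselves, in the fit they were 0.50, 0.38 and 0.38 with estradiol and 0.065, -0.099 and -0.065 with ethanol. The size of the ethanol medians, and the direction at 1 h, thus changed with these settings. At 4 h both ethanol libraries were below both untreated ones for 7 of the 10, against 30.8% of all genes.

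The replicates of a group differed in the same direction for nearly all of these genes. Replicate 1 was above replicate 2 in 9 of the 10 in each estradiol group, in 8 and 9 of the 10 at 2 and 4 h of ethanol, and in 1 of the 10 at 1 h of ethanol and in untreated cells. CHS2 ran against the other genes in each group, except that MYO1 shared its sign at 2 h of ethanol. The median difference between replicate 1 and replicate 2 over the 10 was 0.59, 0.78 and 0.53 on the log2 scale at 1, 2 and 4 h of estradiol, -0.66, 0.23 and 0.34 at 1, 2 and 4 h of ethanol and -0.30 in untreated cells, while that over all genes stayed between -0.042 and 0.024. The largest differences were those of MYO1 (1.43 and 1.52) and BUD4 (1.20 and 1.10) at 1 and 2 h of estradiol.

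The replicate differences moved with gene length, save at 1 h of ethanol and in untreated cells, where the correlations were weak. Across 5782 genes, which are not independent replicates, the Spearman correlation of the difference between replicate 1 and replicate 2 with coding length was 0.49, 0.33 and 0.33 at 1, 2 and 4 h of estradiol, -0.034, 0.32 and 0.25 at 1, 2 and 4 h of ethanol and -0.099 in untreated cells. The 10 genes are long, with coding lengths of 1833 to 5787 bases and a median of 2587.5, against a median of 1200 over 5979 identifiers. The log2 fold changes had correlations with coding length of 0.041, -0.12 and -0.13 for estradiol against ethanol at 1, 2 and 4 h and of -0.064 in the average. Against untreated cells these were -0.23, -0.31 and -0.24 at 1, 2 and 4 h of estradiol and -0.26, -0.33 and -0.23 at 1, 2 and 4 h of ethanol. With a trend on coding length removed from each library, SWI5 (0.90, adjusted p = 0.00650), BUD4 (0.95, adjusted p = 0.00287), BUD3 (0.56, adjusted p = 0.0230) and ALK1 (0.76, adjusted p = 0.00306) were called in the average. This setting was chosen after seeing the data. In the average it called 405 of all genes (215 higher), against 393 (208 higher) without it. At 1, 2 and 4 h taken alone it called 0 of the 10. It called 80, 90 and 134 of all genes there, against 61, 80 and 119 without it. Fitted on the libraries numbered 1 alone 0 of the 10 were called, with 33 of all genes, and the median of the 10 was 0.89. On those numbered 2 alone CDC5, SWI5, BUD4, CHS2 and ALK1 were called, with 1092 of all genes, and the median was 0.26. The fold changes were thus larger in the set with fewer calls.

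**Figure D4:**
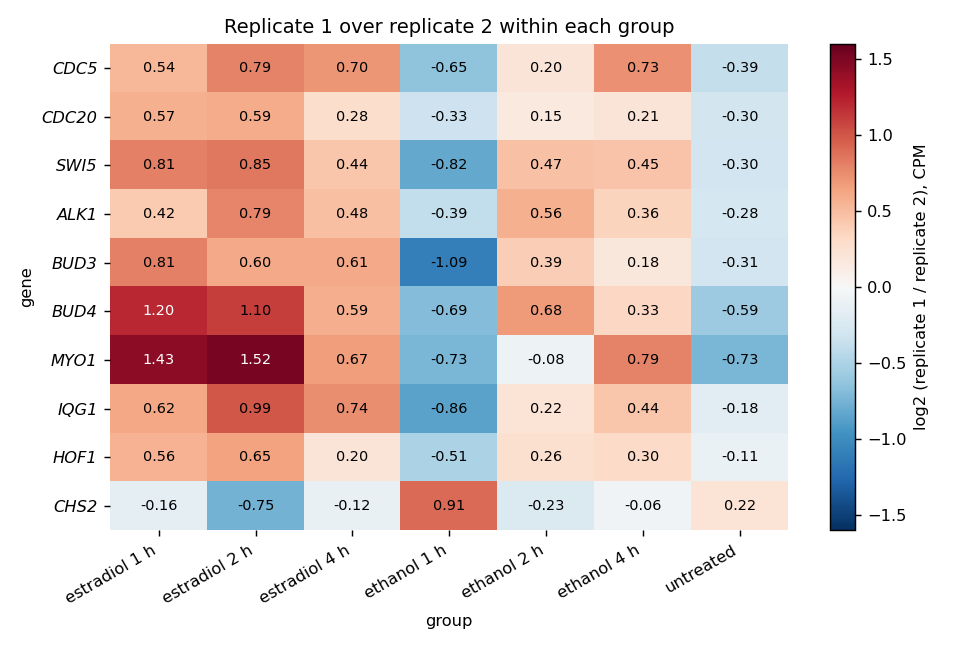
Log2 ratio of replicate 1 to replicate 2 (colour and printed value, CPM) for each of the 10 genes (rows) in each of the 7 groups (columns). Estradiol columns are positive except for CHS2, and the 1 h ethanol and untreated columns are negative except for CHS2.

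To compare levels between genes, CPM were divided by coding length in kilobases (mean ± SD, n = 2). At 1 h of estradiol CDC5 was highest at 48.7 ± 12.7 CPM per kb, followed by ALK1 at 36.5 ± 7.53, SWI5 at 35.4 ± 13.7 and CHS2 at 31.5 ± 2.49, and MYO1 at 16.6 ± 10.8 and BUD3 at 8.80 ± 3.39 were lowest. In untreated cells CDC5 stood at 32.6 ± 6.14 CPM per kb, ALK1 at 25.6 ± 3.49, CDC20 at 23.7 ± 3.47, CHS2 at 22.1 ± 2.43 and HOF1 at 21.7 ± 1.19. IQG1 at 20.8 ± 1.81, SWI5 at 20.6 ± 3.01, BUD4 at 17.4 ± 4.94, MYO1 at 10.2 ± 3.54 and BUD3 at 6.89 ± 1.03 came after them. From ALK1 to BUD4 each step of the untreated order was smaller than the larger SD of the neighbours, and so was that between MYO1 and BUD3. SWI5 had rank 3 at 1 h of estradiol and rank 7 in untreated cells, and CDC20 had rank 8 at 1 h of estradiol and rank 3 in untreated cells. At 1 h of estradiol, too, the steps of the order were smaller than the larger SD of the neighbours, so these rank changes are uncertain.

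Other genes of the same pathways were read from lists in the average comparison, beside a median of 0.018 over all genes. Of all genes in that comparison, 3.29% were called higher and 2.93% lower. Of 14 other CLB2 cluster genes, 5 rose and 0 fell (median 0.38). They include CLB1, a mitotic B-type cyclin (1.31, adjusted p = 0.00139), HST3, a histone deacetylase of the sirtuin family (0.72, adjusted p = 0.00347), and AIM20 (0.72, adjusted p = 0.000446). These 3 were called without each treated library in turn, while the count for the list ranged from 3 to 6, and with library totals 1 gene of the list was called. CLB2, the cyclin that names the cluster, also rose, by 1.07 (adjusted p = 0.0306), and was singled out after its value was seen. It lost its call without 6 of the 12 treated libraries (adjusted p up to 0.0901).

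Of 8 regulators of the cluster, 5 rose and 0 fell (median 0.55). YHP1 and YOX1, homeodomain repressors that act with Mcm1, rose by 1.65 (adjusted p = 1.10e-06) and 1.34 (adjusted p = 0.000249), and HCM1, a forkhead factor of S phase, rose by 0.79 (adjusted p = 0.000773). All 3 were called without each treated library in turn. The coactivator NDD1, singled out after its value was seen, rose by 0.51 (adjusted p = 0.0412) and lost its call without 8 of the 12 libraries (adjusted p up to 0.113). MCM1 (0.06), FKH1 (-0.01) and FKH2 (0.04) were not called.

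In 4 other pathway lists, of 6 to 16 genes, 0 to 2 genes were called in each. Of all genes, 3.29% were called higher and 2.93% lower. Of 15 septin, bud neck and bud site genes, 1 rose and 1 fell (median 0.16): AXL2, an axial landmark membrane protein, rose by 0.98 (adjusted p = 0.00179), and BUD9, a landmark of bipolar budding, fell (-0.43, adjusted p = 0.0191, called without 8 of the 12 libraries). Of 9 mitotic exit network genes, 1 rose and 0 fell (median 0.19), namely BFA1, part of the checkpoint that holds back mitotic exit (0.77, adjusted p = 0.0475, lost without 9 of the 12 libraries at adjusted p up to 0.135). The 16 genes on the list of the anaphase-promoting complex, securin and separase had 0 calls by edgeR or DESeq2 and a median of 0.11. Of these, 3 had an unadjusted p under 0.05 in either direction, as did 987 of the 6320 genes tested. Of 6 genes holding ALK2, the paralogue of ALK1, and the morphogenesis checkpoint, 2 rose and 0 fell (median 0.28). They were the kinase gene SWE1 (0.63, adjusted p = 0.0465), which restrains Cdc28, and HSL1, a kinase gene that opposes Swe1 (1.17, adjusted p = 0.0245). SWE1 lost its call without 11 of the 12 libraries (adjusted p up to 0.135) and HSL1 without 6 (up to 0.0761), and ALK2 was at 0.32 (adjusted p = 0.205).

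The phase markers gave 3 of 3 G1/S genes higher (median 1.92) and 3 of 8 histone genes higher (median 0.38) in the same comparison. The G1/S genes are SBF targets, so in them induced SWI4 and a change of phase cannot be told apart. PCL1 rose by 3.31 (adjusted p = 1.03e-07), CLN1 by 1.92 (adjusted p = 1.17e-05) and CLN2 by 1.20 (adjusted p = 0.000229). Among the histone genes HHF2 rose by 0.60 (adjusted p = 0.0116), HHT2 by 0.49 (adjusted p = 0.0307) and HTA2 by 0.58 (adjusted p = 0.0348). HHT2 and HTA2 lost their calls without 8 and 9 of the 12 libraries (adjusted p up to 0.0984 and 0.0987). Near-identical copies of the histone genes can share reads, so their separate values are uncertain.

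**Figure D5:**
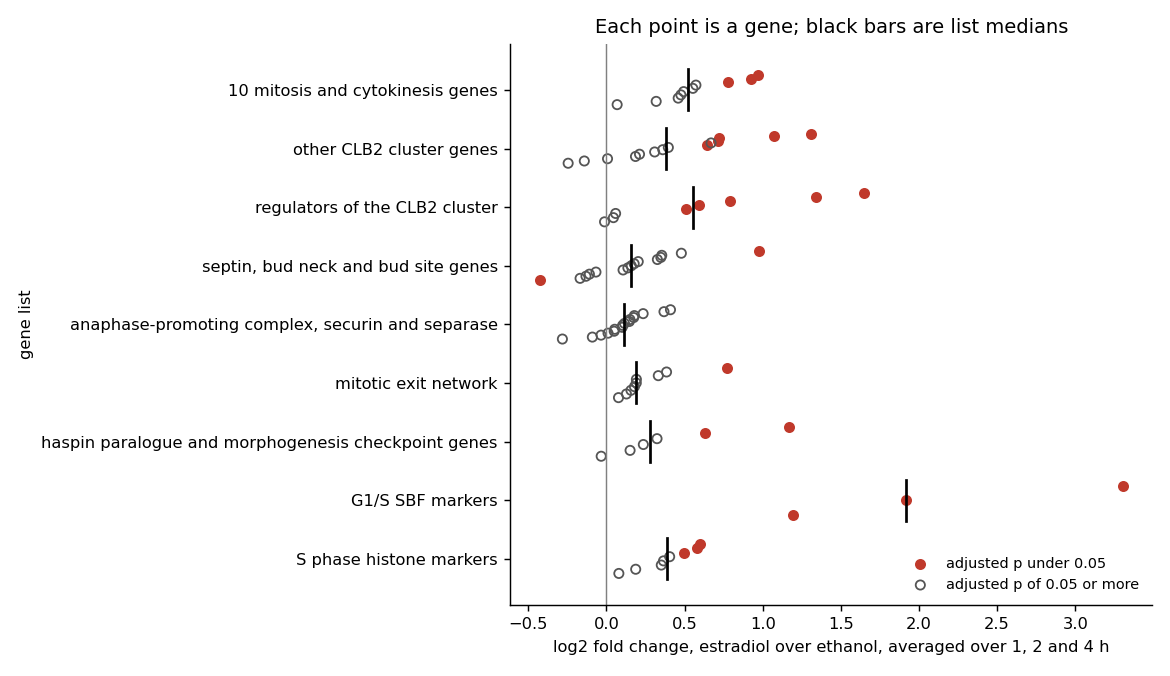
Average log2 fold change of estradiol over ethanol (horizontal axis) of each gene, by list (vertical axis), with filled points at an adjusted p under 0.05 and black bars at list medians. The 10 mitosis and cytokinesis genes have a median of 0.52, the other CLB2 cluster genes 0.38 and the regulators of the cluster 0.55.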

How the data were processed

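The authors deposited raw read counts per open reading frame with no normalization. Reads were aligned with Bowtie2 2.2.5, per the submitters' processing notes; the counter, strand setting and build were not given in the sources used here. Groups follow the sample labels (1, 2 and 4 h), although the treatment protocol mentions 1 h alone. Counts were tested in R 4.3.3 with edgeR 4.0.16: TMM factors, filterByExpr on the group (minimum count 10; 6337 genes), and a robust quasi-likelihood fit with a coefficient per group over all 14 libraries (7 residual degrees of freedom, common biological coefficient of variation 0.206). For the average effect the model held estradiol and time over 12 treated libraries (6320 genes), and the change with time was a joint F test. Tests were 2-sided, adjusted by Benjamini-Hochberg over all genes, with calls at an adjusted p under 0.05. Each SE was derived as |log2 fold change|/√F, and the 95% intervals use it. The depth of 3469868 to 17314913 counts gave each of the 10 genes at least 40 counts per library. Scripts were tested on simulated data. The 10 genes overlap no other gene annotated in R64. R64 gave symbols for 5999 of 6670 identifiers, coding lengths and promoter sequence, by locus tag.

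The members, the other lists and the tests were chosen with earlier results of these data known. From each list and comparison, the up to 3 called genes with the smallest p were to be named. 1 list and 1 gene of another list are not reported here, though the gene stays in that list's counts. Alternatives were RLE factors, library totals, no filter, mean CPM of 10 or more, a replicate block, a surrogate variable (sva 3.50.0), DESeq2 1.42.0, only the groups compared, the mean of the 3 contrasts, a 150-base promoter window and leaving out each library. Removal of a trend on coding length, and fits on the libraries numbered 1 or 2 alone, were chosen after seeing the data.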

Additional observations from a re-analysis of the deposited data

How the results depend on the processing

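Over 26 settings and the 4 comparisons of estradiol with ethanol, 940 other values for single members gave 861 with the same direction and side of the threshold, 24 that newly passed it, 26 that no longer did and 29 of opposite sign. Some of the 861 could not change, since the average uses treated libraries only and leaving out an untreated library does not alter it. A surrogate variable raised the members called from 0 to 2 at 1 h (SWI5, ALK1), 3 at 2 h and 7 at 4 h, from 3 to 8 in the average, and from 0 to 6, 5 and 6 at 1, 2 and 4 h of estradiol against untreated cells; its cause was not tested. A fit on only the groups compared, with fewer samples, gave 3 at 1 h (SWI5, BUD4, MYO1) and 1 at 4 h of estradiol against untreated cells (CHS2). In the average, library totals gave 0, the libraries numbered 1 gave 0 and those numbered 2 gave 5, and leaving out 1 library gave 0 to 4 members (0 to 0 in each other comparison). Replicate numbers were not used to pair the samples, since 11 of 21 pairs of groups had a correlation of deviations over 0.1 (from -0.71 to 0.76). All 10 pairs among estradiol at 1, 2 and 4 h and ethanol at 2 and 4 h had 0.35 to 0.76 and ethanol at 1 h had 0.64 with untreated cells, while the pairs across these sets were negative. With the replicate number as a block the average still had 3 members called and every other comparison 0. BUD4 was not called with a mean CPM of at least 10 (adjusted p = 0.0519) or the mean of the contrasts (adjusted p = 0.0615). Library totals moved the median of all genes at 1 h to 0.32, and the surrogate variable gave the members a median of 0.065 at 1 h of ethanol against untreated cells, which is of opposite sign. The members' average median was 0.89 with the libraries numbered 1 and 0.26 with those numbered 2. Opposite signs were found for CDC20 with the surrogate variable (-0.0555 at 1 h, -0.0462 average), a mean CPM of at least 10 (0.013 at 2 h), the length trend removed (0.012 at 2 h) and the libraries numbered 2 (-0.18 average), for CHS2 with the length trend removed (-0.0520 at 1 h) and for MYO1 in the libraries numbered 2 (-0.20 average). Leaving out 1 library gave CDC20 -0.044 to 0.51 at 1 h, -0.33 to 0.26 at 2 h, -0.22 to 0.064 at 4 h and -0.040 to 0.13 in the average, CHS2 -0.33 to 0.54 at 1 h and -0.018 to 0.73 at 2 h, IQG1 -0.38 to 0.61 at 2 h and -0.018 to 0.73 at 4 h, MYO1 -0.30 to 1.22 at 2 h and -0.69 to 0.14 at 4 h, HOF1 -0.13 to 0.52 at 2 h and CDC5 -0.0088 to 0.79 at 4 h. Counts over all genes that moved by over 1.5 times were, with the surrogate variable, 274, 408 and 649 at 1, 2 and 4 h (61, 80 and 119 by the fit over all groups), 31, 161 and 1273 for ethanol against untreated cells at 1, 2 and 4 h (0, 3 and 110), 990, 1411 and 2390 for estradiol against untreated cells (97, 220 and 675), 1236 in the average (393) and 16 for the change with time (0). DESeq2 gave 157, 150 and 208, then 22, 41 and 486, then 227, 444 and 1133, and 2 for the change with time. Only the groups compared gave 97 at 1 h and 40 at 2 h, 255 and 853 for ethanol of 2 and 4 h against untreated cells and 271, 41 and 1855 for estradiol of 1, 2 and 4 h against untreated cells. Library totals gave 377 for estradiol of 4 h and 1 for ethanol of 1 h against untreated cells, the replicate block gave 5 and 175 for ethanol of 2 and 4 h, and the length trend removed gave 6 for ethanol of 2 h. The average gave 33 with the libraries numbered 1 and 1092 with those numbered 2, and leaving out 1 library gave 12 to 205, 29 to 95 and 43 to 159 genes at 1, 2 and 4 h and 219 to 445 in the average, and against untreated cells 12 to 154, 71 to 294 and 183 to 919 with estradiol and 0 to 2, 0 to 4 and 10 to 216 with ethanol.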
